A study of Rattus norvegicus with 7 samples.

Results

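The nuclear-encoded subunits of the oxidative phosphorylation system were followed in cultured spinal cord cells of the rat under cyclic tensile stress. Genes were taken as subunits by symbol (Ndufa, Ndufb, Ndufc, Ndufs, Ndufv, Uqcr, Cox4 to Cox8, Atp5, Sdha to Sdhd and Cyc1, without the Ndufaf assembly factors), with 1 probe set per gene, that of the highest mean signal, and a mean signal over the arrays of at least 100. The rule found 90 probe sets of 81 genes, of which 75 genes reached the minimum, out of 10315 genes on the same terms. They comprised 35 genes of complex I, 4 of complex II, 8 of complex III, 12 of complex IV and 16 of complex V. The other 6 genes (Ndufa4l2, Cox4i2, Cox6a2, Cox6c-ps1, Cox7b2 and Cox8b) lay below the minimum. Cox7a1 was just inside it with a mean signal of 104, and Cox8b just outside with 91.5. Another 7 probe sets carried several symbols and were kept apart.

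Spinal cords of E15 Sprague-Dawley embryos were stripped of dorsal root ganglia and meninges, dissociated and cultured on flexible membranes, and 3 days after seeding the cultures received a 10% cyclic strain. The untreated group was the 0 hour culture, and the strained groups were collected after 2, 6 and 12 hours and after 24, 48 and 72 hours. The RNA of 5 animals was pooled at each time and hybridised to 1 Affymetrix rat array, so each group is 1 sample and time in culture and time under strain cannot be told apart here. Most cells of such cultures carry the neuronal marker NeuN according to the study's methods, and the rest were not purified away. In bulk RNA, fewer cells of a type and less RNA per cell cannot be told apart.

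The complexes work in series in the inner membrane of mitochondria. Complex I takes electrons from NADH and complex II from succinate, complex III passes them from ubiquinol to cytochrome c, and complex IV passes them on to oxygen. Complexes I, III and IV pump protons, and complex V, the ATP synthase, uses the gradient to make ATP. Neurons depend strongly on this pathway. Nearly all subunits are encoded in the nucleus, a few in the mitochondrial genome, and NRF-1, the ETS factor GABP and YY1 are known regulators of many of the nuclear genes.

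Promoters of the subunits are shown because 29 of these genes, which lie apart in the genome, fell over the same arrays. RefSeq windows of the assembly GRCr8, from 250 bases before to 50 bases after the start, were held for 68 of the 75 genes. The exact letters GCGCATGC (NRF-1) were found on either strand in 7 of these windows (10.3%), against 2.66% of all 27457 windows and 3.22% of the 18999 windows of protein-coding genes. CCGGAAG (ETS) was found in 20 (29.4%), against 9.22% and 11.2%, and AAGATGG (YY1) in 18 (26.5%), against 7.30% and 7.58%. At least 1 of the motifs stood in 33 windows (48.5%), against 17.5% and 20.0%. The letters stood in subunits that fell and in those that did not pass. Of the 27 windows of subunits that fell, 4 held NRF-1 (14.8%), 10 ETS (37.0%) and 8 YY1 letters (29.6%). Of the 41 windows of subunits that did not pass, 3 (7.32%), 10 (24.4%) and 10 (24.4%) did. A difference between these groups was not tested. All of these are matches of letters and not measured binding. Of the 4 windows printed here, in the direction of the gene, Ndufa11, Atp5po and Uqcrc2 were chosen for the most matches among the genes with the largest falls, and Ndufv2 because it fell most of all 75 and holds none of the motifs. Capitals mark the motif letters of either strand. The 16 capitals of Ndufa11 are 4 overlapping NRF-1 matches that begin 97 bases before the start, since the motif and its reverse complement GCATGCGC share letters. In Atp5po the NRF-1 letters begin 59 bases before the start and the YY1 letters 1 base after it. In Uqcrc2 ETS letters begin 117 and 28 bases before the start, and YY1 letters 19 bases before it. The windows are chr9:1637364-1637663 (plus strand) for Ndufa11, chr11:44657434-44657733 (minus strand) for Atp5po, chr1:184598990-184599289 (plus strand) for Uqcrc2 and chr9:113157471-113157770 (minus strand) for Ndufv2.
Ndufa11: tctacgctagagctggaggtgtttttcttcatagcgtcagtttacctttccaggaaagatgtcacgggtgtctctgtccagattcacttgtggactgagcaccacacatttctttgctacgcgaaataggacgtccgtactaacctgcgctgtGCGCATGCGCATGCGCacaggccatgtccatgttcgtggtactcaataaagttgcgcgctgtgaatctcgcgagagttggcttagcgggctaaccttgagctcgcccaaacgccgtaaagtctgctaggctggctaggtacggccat
Atp5po: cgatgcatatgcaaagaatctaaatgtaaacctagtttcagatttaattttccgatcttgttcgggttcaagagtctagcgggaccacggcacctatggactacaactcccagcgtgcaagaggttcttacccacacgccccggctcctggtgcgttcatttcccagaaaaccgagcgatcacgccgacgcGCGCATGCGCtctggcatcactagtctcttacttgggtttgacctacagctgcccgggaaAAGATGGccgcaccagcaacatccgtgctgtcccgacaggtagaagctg
Uqcrc2: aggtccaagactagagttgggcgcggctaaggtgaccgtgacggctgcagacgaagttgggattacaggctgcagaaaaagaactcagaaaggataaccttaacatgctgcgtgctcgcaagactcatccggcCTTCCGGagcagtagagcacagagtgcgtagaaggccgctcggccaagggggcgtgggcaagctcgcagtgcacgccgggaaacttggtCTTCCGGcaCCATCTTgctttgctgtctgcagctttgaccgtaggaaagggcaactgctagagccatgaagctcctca
Ndufv2: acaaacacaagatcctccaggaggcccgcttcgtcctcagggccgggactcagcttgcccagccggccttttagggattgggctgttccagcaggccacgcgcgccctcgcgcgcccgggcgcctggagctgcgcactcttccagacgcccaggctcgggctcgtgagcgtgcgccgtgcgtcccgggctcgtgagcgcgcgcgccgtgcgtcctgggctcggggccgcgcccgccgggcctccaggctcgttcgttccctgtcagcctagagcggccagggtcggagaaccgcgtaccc

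Values are linear MAS5.0 signals, brought by the authors to a common trimmed mean on every array. With 1 array per time, a single time point has no replicate check. A linear change with hours was therefore tested over the 7 arrays with limma on log2(signal + 32), across 17709 probe sets of mean signal at least 100. Only genes past this test at a Benjamini-Hochberg adjusted p of 0.05 are said to have risen or fallen. The fitted change is the slope over 72 hours on that log2 scale. Its standard error (SE) comes from the spread of the arrays around the line, not between replicate cultures. limma draws the spread of each gene toward that of probe sets of similar signal, so the SE is not the gene's own scatter alone.

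Of the 75 subunits none rose (15.0% of all probe sets tested did), 29 fell (38.7%, against 14.1% of all probe sets tested) and 46 did not pass. At an unadjusted p under 0.05 the test took 47 (62.7%, against 41.4% of all probe sets tested). Part of those that did not pass thus lay near the threshold. The falls were small. No subunit passed the size threshold of the study's methods, a ratio to 0 hours of at least 2 in either direction with a difference of at least 200, while 4.50% of all probe sets tested were higher and 6.16% lower by it at 72 hours. At a ratio of 1.5 with the same difference, 6 were lower at 72 hours (Ndufa11, Ndufa12, Ndufb5, Ndufs1, Ndufv2 and Atp5po) and none higher. The share of all probe sets at 1.5 was not counted, so these 6 cannot be set against a background. The adjusted p of the 29 lay between 0.00100 and 0.0453.

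Every complex held at least 1 call. In complex I 13 of 35 subunits fell (37.1%), in complex II 1 of 4 (25%) and in complex III 5 of 8 (62.5%). In complex IV 2 of 12 fell (16.7%) and in complex V 8 of 16 (50%). Of all probe sets tested 14.1% fell, close to the share in complex IV, and the share in complex II rests on 1 gene. The counts by complex are unstable. With 1 array left out they ran from 5 to 15 in complex I, 0 to 1 in II, 1 to 5 in III, 0 to 3 in IV and 2 to 9 in V, and with time as log2(hours + 1) complex III had 1 and complex I had 5. The median log2 change at 72 hours against 0 hours was -0.28 in complex I, -0.10 in II, -0.33 in III, -0.26 in IV and -0.31 in V, and 0.00 over all probe sets tested, whose quartiles were -0.37 and 0.35. The complexes were not tested against each other. Their medians lay within the quartiles of all probe sets, but these describe single probe sets and not how far a group median varies. Of the 75 subunits 8 lay above 0.

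**Figure D1:**
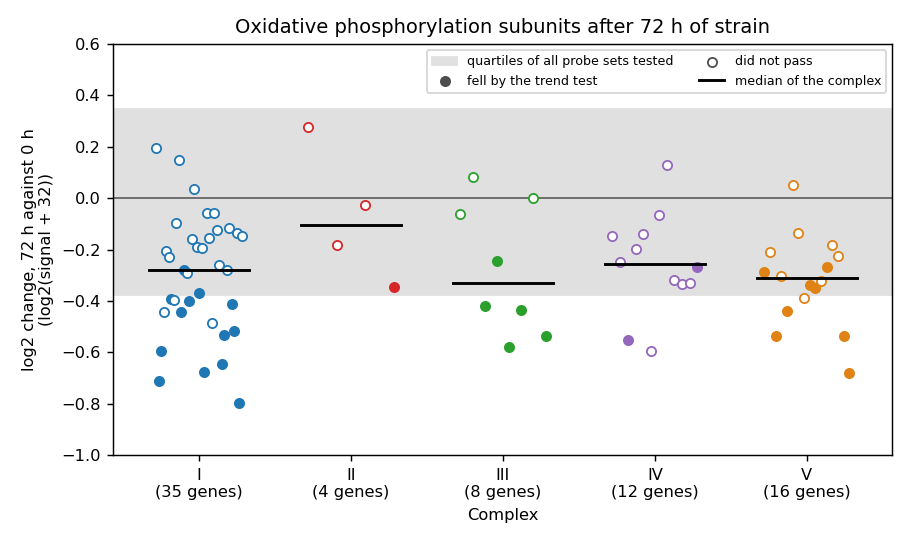
The log2 change of signal (log2(signal + 32)) at 72 hours against 0 hours is plotted for each of the 75 subunits, by complex, with filled points for genes that fell by the trend test, open points for those that did not pass, a black line at each complex median and a grey band over the quartiles of all probe sets tested (-0.37 to 0.35). Of the 75 points 67 lie below 0, and the medians run from -0.10 in complex II to -0.33 in complex III.

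The course had a plateau and a late decline. The median log2 change of the subunits from 0 hours was 0.06 at 2 hours and 0.08 at 6 hours. It was -0.03 at 12 and -0.04 at 24 hours, then -0.16 at 48 and -0.28 at 72 hours. Below their own 0 hour signal were 16 of 75 on the 2 hour array (51.6% of all probe sets tested were) and 16 on that of 6 hours (53.6%). The number was 44 at 12 hours (49.4%) and 43 at 24 hours (50.3%), and it reached 61 at 48 hours (52.0%) and 67 at 72 hours (50.3%). So, as deposited, most subunits were above their starting signal in the first 6 hours and nearly all below it at the end. The 6 hour array gave the highest of the 7 signals for 35 subunits (46.7%, against 14.2% of all probe sets tested), and the 72 hour array the lowest for 54 (72.0%, against 22.3%). From 24 to 72 hours the signal was lower in 68 of 75 (90.7%, against 49.2%).

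Bright probe sets shared part of this course. Of the 733 probe sets whose mean signal reached 5000, 32.9% were highest at 6 hours, 38.2% lowest at 72 hours and 74.6% lower at 72 than at 24 hours, and 145 fell while 52 rose (19.8% and 7.09%). Above 0 hours were 60.8% of the 733 at 2 hours and 68.9% at 6 hours. For the 28 subunits of that range these shares were 82.1% and 92.9%. Of the 28 subunits in that range, 10 fell (35.7%) and 22 were lowest at 72 hours (78.6%), and of the 47 dimmer subunits 19 fell (40.4%). The part of signal strength in the course was not tested. Scaling all arrays to the same median signal brought the median log2 change of all probe sets tested to 0.13 at 2, 0.12 at 6, 0.14 at 12 and 0.064 at 72 hours, from values between -0.04 and 0.01 as deposited, and with it the subunits' medians became 0.21 at 2, 0.24 at 6, 0.11 at 12, 0.064 at 24, -0.035 at 48 and -0.21 at 72 hours. With quantile normalization they were 0.014 at 2 and 0.0069 at 6 hours. The sign at 12 and 24 hours and the size at 2 and 6 hours thus depend on the scaling, and the low value at 72 hours does not.

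**Figure D2:**
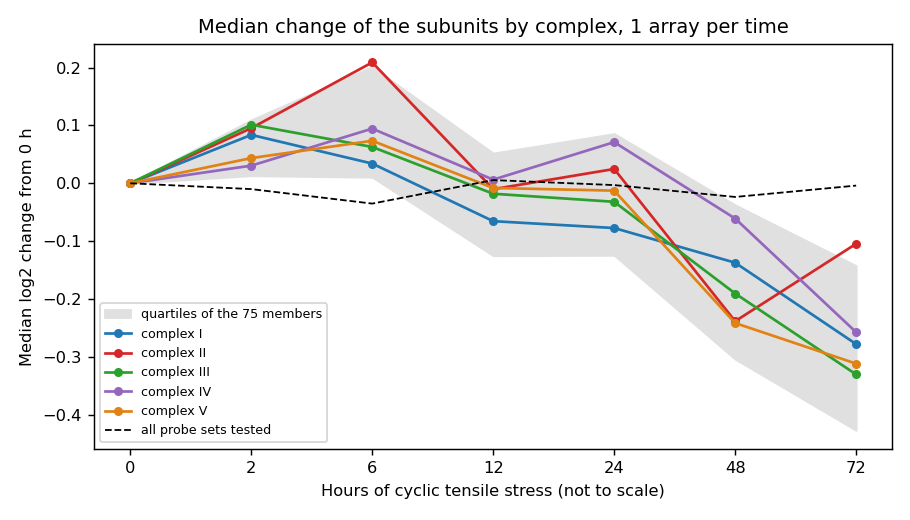
The median log2 change from 0 hours is drawn for each complex against the hours of stress (1 array per time, axis not to scale), with a grey band over the quartiles of all 75 subunits and a dashed line for the median of all probe sets tested. All 5 lines end below 0 at 72 hours, between -0.33 and -0.10, while the dashed line ends near 0.

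In complex I, the core subunits of the peripheral arm pass electrons from NADH to ubiquinone. Of the 6 measured (Ndufs1, Ndufs3, Ndufs7, Ndufs8, Ndufv1 and Ndufv2) 5 fell, all but Ndufv1, and of the 29 accessory subunits 8 fell. The groups were not tested against each other. Ndufv2, an iron-sulphur protein of the NADH-oxidising module, had signals of 3690, 3948, 3777, 3544, 3310, 2178 and 2109 on the 7 arrays in order of time. The first 5 arrays lay well above the last 2, with no overlap. Its fitted change was -0.97 (SE 0.13, adjusted p = 0.00100), the largest of all subunits, and its ratio at 72 hours was 0.572. Ndufs1, the largest of the core iron-sulphur proteins, had signals of 2450, 2403, 2295, 2051, 2026, 1568 and 1557. They went down at every step, in pairs of arrays, and the fitted change was -0.68 (SE 0.12, adjusted p = 0.00356). Ndufs3, of the quinone-binding module, had 2149, 2087, 2217, 1874, 1721, 1636 and 1478, and fell by 0.54 on the log2 scale (SE 0.12, adjusted p = 0.0101). Ndufv1, which binds NADH and the flavin and pairs with Ndufv2, did not follow it. Its signals were 2579, 2547, 2596, 2426, 2397, 2398 and 2345, all within 0.909 to 1.01 of 0 hours, with a fitted change of -0.13 (SE 0.11, adjusted p = 0.390).

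Among the accessory subunits of complex I, Ndufa11, a membrane subunit needed for assembly of the complex, had signals of 3298, 3308, 3310, 3080, 2895, 2509 and 2004. Its first 3 arrays were level and each later one was lower, and it fell by 0.71 (SE 0.11, adjusted p = 0.00148). Ndufb5, of the distal membrane arm, had 4813, 5102, 4920, 4878, 4643, 3868 and 2999, and also fell by 0.71 (SE 0.11, adjusted p = 0.00194). Here the first 5 arrays were close together and the last 2 stood below them. Ndufa12, which sits on the peripheral arm, had 4074, 4146, 3882, 3721, 3531, 3076 and 2688, and fell by 0.60 (SE 0.10, adjusted p = 0.00249). Ndufa4, named for complex I but found as a subunit of complex IV, fell from 7403 at 0 hours to 5632 at 72 hours (-0.42, SE 0.10, adjusted p = 0.0120). It was counted in complex I throughout, by its symbol. Its hypoxia-related relative Ndufa4l2 was at the floor of the array, with signals of 17.5 to 86.8.

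A few complex I subunits ended above their start. Ndufa1, a small subunit needed for assembly of the membrane arm, had signals of 6888, 7994, 9245, 8547, 8840, 8985 and 7899. All 6 strained arrays were above the 0 hour array, yet the trend did not pass (0.06, SE 0.15, adjusted p = 0.800), since the highest signal came at 6 hours. Ndufa7 was at 2646 and 2940 and Ndufb11 at 3824 and 3922 at 0 and 72 hours, and neither passed.

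**Figure D3:**
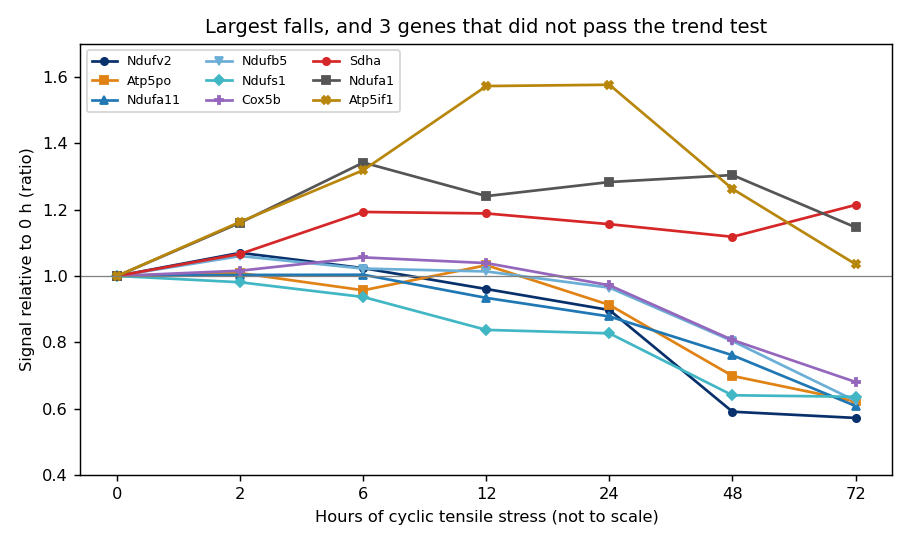
The signal relative to 0 hours (ratio) is drawn over the hours of stress (1 array per time, axis not to scale) for 6 subunits that fell and for Sdha, Ndufa1 and Atp5if1, which did not pass the trend test. The 6 that fell end between 0.572 and 0.680, the other genes end above 1, and Atp5if1 reaches 1.58 at 24 hours before it returns to 1.04.

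Succinate dehydrogenase, complex II, is also an enzyme of the citric acid cycle. Its flavoprotein Sdha had signals of 3400, 3627, 4057, 4042, 3932, 3802 and 4129, so that every strained array lay above the 0 hour array and the 72 hour array was the highest. The ratio at 72 hours was 1.21, and the trend did not pass (0.14, SE 0.12, adjusted p = 0.433). The iron-sulphur subunit Sdhb was at 5215, 5190, 5983, 4969, 4689, 4241 and 4595 (-0.31, SE 0.13, adjusted p = 0.108). The membrane anchor Sdhc was at 4145, 4755, 4836, 4289, 4457, 3639 and 4066 (-0.24, SE 0.13, adjusted p = 0.205). The other anchor, Sdhd, was at 4690, 5022, 4956, 3984, 4515, 3828 and 3682, and fell by 0.41 (SE 0.13, adjusted p = 0.0371). Its call is close to the threshold, and was lost in 5 of 7 fits that left out 1 array, but a second Sdhd probe set also fell, from 2217 at 0 hours to 1742 at 72 hours (-0.50, SE 0.13, adjusted p = 0.0167). The 4 subunits of this smallest complex thus ranged from a ratio of 0.785 to 1.21 at 72 hours.

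In complex III, Uqcrc2, a core protein of the matrix side, had signals of 4899, 4793, 4584, 4140, 3884, 3329 and 3271. Each array was lower than the one before it, and the fitted change was -0.60 (SE 0.12, adjusted p = 0.00457). A second Uqcrc2 probe set showed 1755, 2117, 1138, 1137, 979, 711 and 938, and also fell (-1.02, SE 0.32, adjusted p = 0.0379). It was the only probe set of the rule to pass the size threshold at any time, at 48 hours. Uqcrfs1, the Rieske iron-sulphur protein, was at 5407, 5976, 6611, 5237, 5118, 4271 and 3988, with its highest signal at 6 hours, and fell by 0.61 (SE 0.13, adjusted p = 0.00807). Uqcrq, a small subunit next to cytochrome b, was at 4652, 4810, 4744, 5026, 4529, 3983 and 3199, and fell by 0.56 (SE 0.12, adjusted p = 0.00623). The 72 hour array was the lowest for Uqcrfs1 and Uqcrq. Cyc1, the cytochrome c1 that hands electrons to cytochrome c, had 4210, 4549, 4123, 3550, 3972, 3689 and 4037, with its lowest signal at 12 hours, and did not pass (-0.11, SE 0.13, adjusted p = 0.578). Of the small subunits, Uqcrh stayed within ratios of 0.980 to 1.07 on all strained arrays. Uqcr10 was at 9352, 10046, 10915, 10190, 11396, 10756 and 9916, above its 0 hour signal on every strained array and highest at 24 hours, and did not pass (0.03, SE 0.12, adjusted p = 0.885). Complex III therefore held both subunits that fell and subunits whose last array was near the first.

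Complex IV by symbol, so without Ndufa4, had 2 calls. Cox5b, a subunit of the matrix side, was at 7222, 7336, 7626, 7502, 7018, 5826 and 4911, with the first 5 arrays close together and the last 2 below, and fell by 0.60 (SE 0.11, adjusted p = 0.00309). Cox8a was at 8423, 8760, 9119, 8411, 8535, 7579 and 6994, and fell by 0.32 (SE 0.10, adjusted p = 0.0350). The ubiquitous Cox4i1 was at 12000, 12546, 13615, 12865, 13124, 12158 and 10824 and did not pass (-0.20, SE 0.11, adjusted p = 0.191). In 11 of the 12 complex IV genes the 72 hour array was the lowest. Cox6a1 (0.871), Cox6b1 (0.908), Cox7a2l (0.800) and Cox7b (0.792) had ratios below 1 at 72 hours and did not pass. Cox6b2, an isoform known from testis, had dim signals of 354, 319, 365, 277, 457, 244 and 223 (-0.57, SE 0.25, adjusted p = 0.119). Among the probe sets of several symbols, 1 shared by Cox7a2 and Cox7a2l2 was at 9019 and 9090 at 0 and 72 hours, and 1 shared by Cox5a and another locus was at 8874 and 8600, and neither passed.

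Isoforms of heart and skeletal muscle were near the floor. Cox8b had signals of 196, 81.8, 126, 80.9, 29.1, 93.7 and 32.4, and Cox6a2 had 111, 70.2, 131, 54.9, 44.1, 61.0 and 48.8. Both were highest on the 0 or 6 hour array and were too dim for the trend test. Cox7a1 had 134, 71.5, 119, 65.9, 119, 66.3 and 149, without a direction (0.22, SE 0.38, adjusted p = 0.704). Markers of skeletal muscle were present in the 0 hour culture and lower afterwards. Of the 14 on the array 10 reached the minimum signal, all 10 lay below 0 hours on every strained array, their summed signal was 13570 at 0 hours and 3110 to 7405 later, and none was at 0. The part of muscle cells in the Cox8b and Cox6a2 signals was not tested. Cox4i2, a lung isoform known to respond to low oxygen, and Cox7b2 had dim signals too, Cox4i2 of 60.1 and 47.4 and Cox7b2 of 17.9 and 18.3 at 0 and 72 hours.

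**Figure D4:**
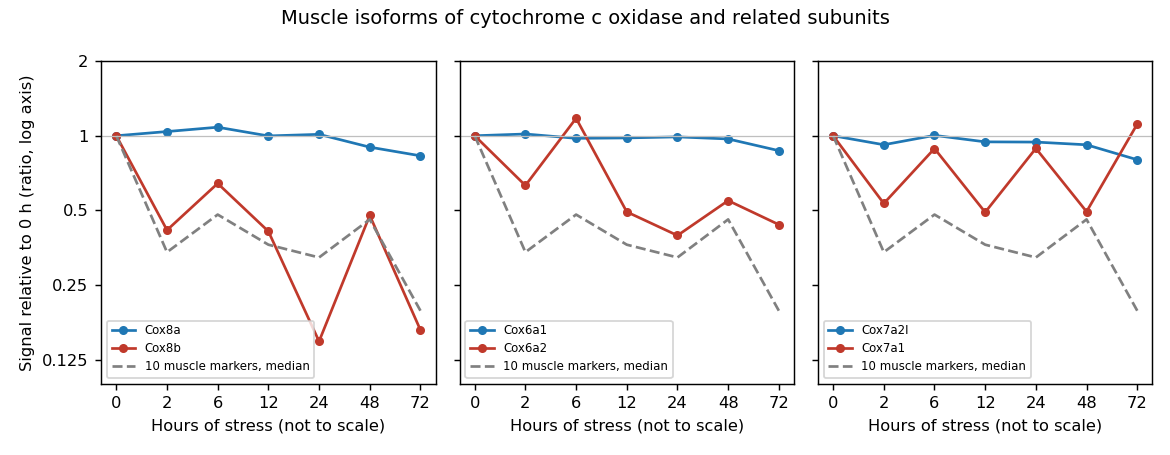
The signal relative to 0 hours (ratio, log axis) is drawn over the hours of stress (1 array per time, axis not to scale) for the muscle isoforms Cox8b, Cox6a2 and Cox7a1 in red, each beside Cox8a, Cox6a1 or Cox7a2l in blue, and for the median of 10 skeletal muscle markers as a dashed line. Cox8b and Cox6a2 end below 1, but at signals of 32.4 and 48.8, near the floor, where a ratio is unreliable. Cox7a1 is dim as well and moves up and down, and the blue lines end between 0.800 and 0.871. Not drawn is the probe set of Cox7a2, another partner of Cox7a1, which is shared with Cox7a2l2 and ends at a ratio of 1.01.

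The ATP synthase, complex V, had the falls in its catalytic head, its stalk and its membrane part alike. In the F1 head 3 of 5 subunits fell (Atp5f1a, Atp5f1c and Atp5f1e), of the stalk and ring 2 of 5 (Atp5po and Atp5pf) and of the small membrane subunits 3 of 5 (Atp5mf, Atp5mg and Atp5mpl). Atp5po, the protein that ties the head to the peripheral stalk and makes the enzyme sensitive to oligomycin, was at 5535, 5582, 5295, 5714, 5051, 3865 and 3440. The last 2 arrays stood apart from the first 5, and it fell by 0.74 (SE 0.11, adjusted p = 0.00160). Atp5pf, another protein of the stalk, was at 5558, 5763, 6032, 5126, 5438, 4509 and 3821, and fell by 0.58 (SE 0.11, adjusted p = 0.00498). The catalytic Atp5f1b was at 11357, 11493, 11724, 11600, 11596, 9627 and 9809 and just missed the threshold (-0.29, SE 0.10, adjusted p = 0.0579). It too was level up to 24 hours and lower on the last 2 arrays. For the ring subunit c, Atp5mc3 was at 10659 and 9701 at 0 and 72 hours and did not pass (-0.24, SE 0.12, adjusted p = 0.164), while the probe sets shared by Atp5mc1 or Atp5mc2 with a similar locus both fell, with ratios of 0.808 and 0.635 at 72 hours.

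Atp5if1, which the symbol rule also took in, is not a structural part of the enzyme but the inhibitor that blocks ATP hydrolysis when the proton gradient fails. Its signals were 4921, 5725, 6492, 7741, 7760, 6214 and 5095, with every strained array above the 0 hour array and the middle ones highest. The largest ratio was 1.58 at 24 hours, the highest of any subunit at that time, and the linear test, which does not see a rise and return, gave -0.13 (SE 0.23, adjusted p = 0.712). A dimmer probe set of the gene was at 76.7, 119, 153, 140, 135, 122 and 108. Without Atp5if1 the other 15 genes of complex V changed by -0.32 (median log2) at 72 hours, and all 15 were below their 0 hour signal at 48 and at 72 hours.

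The other 17 subunits that fell had fitted changes from -0.52 to -0.32. They were Ndufa4, Ndufa8, Ndufa9, Ndufb1, Ndufb3, Ndufs7 and Ndufs8 of complex I, Sdhd of complex II, Uqcrc1 and Uqcr11 of complex III, Cox8a of complex IV, and Atp5f1a, Atp5f1c, Atp5f1e, Atp5mf, Atp5mg and Atp5mpl of complex V. Of the 7 probe sets of several symbols 3 fell (those of Atp5mc1, Atp5mc2 and Ndufa10) and none rose. Of 5 genes with 2 or more probe sets above the minimum, all 5 had the same sign at 72 hours in these probe sets.

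The mitochondrial genome is represented by 2 named probe sets, of COX1 and COX2, catalytic subunits of complex IV. COX1 was at 27016, 23504, 26894, 25761, 28714, 24709 and 29646, and COX2 at 28925, 24838, 30731, 28347, 32429, 28431 and 30459. Both had their lowest signal at 2 hours and ended slightly above their start, and neither passed. These signals lie near the top of the range of the arrays, where differences can be compressed.

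Other genes of the pathway were read from lists beside the subunits. Of 18 electron carriers and transporters, a list that shares Atp5if1 with the subunits, 7 fell (38.9%, against 14.1% of all probe sets tested) and none rose. Etfb, the electron transfer flavoprotein of fatty acid oxidation, was at 2147, 2316, 2555, 1967, 2098, 1201 and 811 and fell by 1.5 (SE 0.17, adjusted p = 0.000484). Coq7, an enzyme of ubiquinone synthesis, fell by 1.07 (SE 0.25, adjusted p = 0.0114), and the outer membrane channels Vdac1 and Vdac3 fell by 0.60 and 0.58. The fitted change of Etfb was beyond, and that of Coq7 close to, the -0.97 of Ndufv2. Of 21 genes of the citric acid cycle and pyruvate dehydrogenase 5 fell (23.8%) and 1 rose (4.76%, against 15.0% of all probe sets tested). Idh2, the NADP-dependent isocitrate dehydrogenase, went from 6097 at 0 hours to 2723 at 72 hours, and Pdk1, a kinase that switches pyruvate dehydrogenase off, from 377 to 153. The related kinase Pdk4, known to rise when fatty acids are burned, moved the other way, from 202 at 0 hours to 438 at 24 hours and 1082 at 72 hours (2.13, SE 0.18).

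Regulators of mitochondrial biogenesis were the list with most rises. Of 17 tested 6 rose (35.3%, against 15.0% of all probe sets tested) and 1 fell (5.88%, against 14.1%). Gabpb1, a subunit of the ETS factor GABP, was at 694, 664, 471, 638, 725, 1082 and 1355 (1.18, SE 0.21, adjusted p = 0.00305). Polg2, a subunit of the mitochondrial DNA polymerase, was at 222, 267, 206, 273, 283, 531 and 465 (1.13, SE 0.23, adjusted p = 0.00587). Twnk, the mitochondrial helicase, went from 409 to 942 (1.03, SE 0.16). Nrf1, whose protein binds the NRF-1 letters shown above, was at 308, 293, 287, 269, 350, 507 and 534 (0.93, SE 0.18, adjusted p = 0.00446). Tfb2m and Yy1 rose as well, with ratios of 1.87 and 1.24 at 72 hours. The 48 and 72 hour arrays, the lowest for most subunits, were the highest for Gabpb1, Polg2, Twnk and Nrf1. The gene that fell was Ppargc1b, a coactivator, from 134 to 68.0.

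Of 73 mitochondrial ribosomal proteins 15 fell (20.5%, against 14.1% of all probe sets tested) and 3 rose (4.11%, against 15.0%). Mrps28 (-1.0, SE 0.18) and Mrpl14 (-0.98, SE 0.18) had the largest falls and Mrps6 (0.81, SE 0.22) the largest rise. Of 22 import genes 3 fell (Timm17b, Timm13 and Tomm5) and 1 rose (Timm29), and the share that fell, 13.6%, was about that of all probe sets tested (14.1%). Of 41 assembly factors of the complexes 3 fell (Coa4, Cmc1 and Coa3) and 2 rose (Foxred1 and Cox18). Of 11 genes of defence against reactive oxygen 2 fell (Nnt and Txn2, 18.2%, against 14.1%) and 1 rose (Gsr, 9.09%, against 15.0%). The shares of assembly factors that fell and rose, 7.32% and 4.88%, were below those of all probe sets. The lists were not tested against each other.

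**Figure D5:**
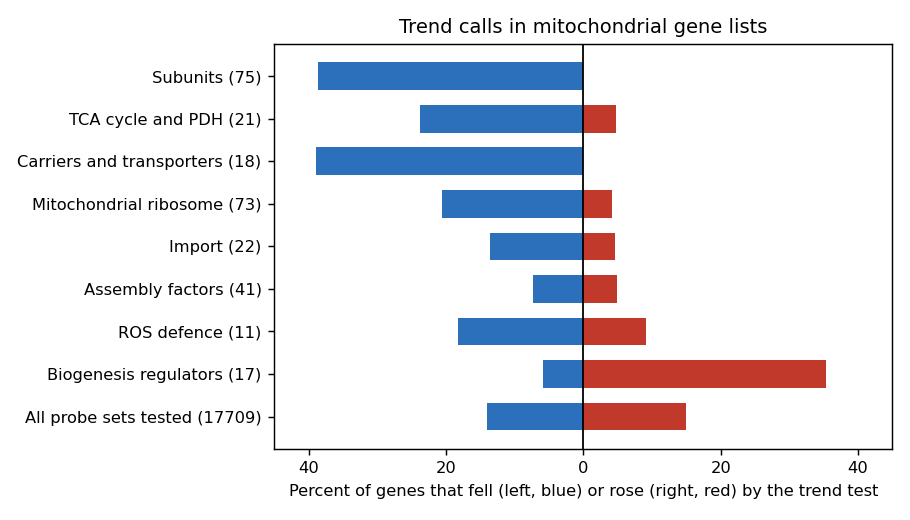
Bars give the percent of genes of each mitochondrial list that fell (blue, to the left) or rose (red, to the right) by the trend test, with the number of genes tested in parentheses, beside all 17709 probe sets tested. PDH is pyruvate dehydrogenase and ROS reactive oxygen. The subunits have 38.7% to the left and none to the right, and the biogenesis regulators 35.3% to the right.

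Markers of cell types moved over the same arrays. Of 12 neuronal markers 11 reached the minimum, all 11 were below 0 hours on every strained array, and their summed signal was 19814 at 0 hours and between 4553 and 11593 later, with none at 0. Their median log2 change was already -1.82 at 12 hours, when that of the subunits was -0.03. The 8 cell cycle markers fell, with a summed signal of 8029 at 0 hours and 1489 at 72 hours. Of 7 microglial markers 6 fell, and their sum went from 32180 at the start to 40806 on the 6 hour array and 16006 on the last. The sum of 7 astrocyte markers was 0.690 times its 0 hour value at 6 hours. All 7 lay below 0 hours on that array, where many subunits were highest. At 72 hours the astrocyte sum was 0.956 times that of 0 hours, with single ratios of 0.383 to 1.31 and a median of 1.07. For 5 oligodendrocyte lineage markers the sum at 72 hours was 0.922 times that of 0 hours, with single ratios of 0.299 to 1.12 and a median of 0.716. For 5 fibroblast markers it was 0.935 times, with single ratios of 0.717 to 1.85 and a median of 0.874. None of these markers was at 0. The ratio of 3' to 5' signal, a sign of RNA integrity, was 1.82 at 0 hours and 2.62 at 72 hours for Actb, and 1.09 and 1.16 for Gapdh. The part of cell composition and of RNA quality in the course of the subunits was not tested.

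The count of subunits that fell depended on single arrays, while the median fitted slope varied less. Without the 72 hour array 8 of 75 fell (10.7%, against 7.21% of all probe sets tested), but 65 of 75 slopes stayed below 0. The median fitted change was then -0.32, against -0.34 with all arrays. That -0.32 is a line through 0 to 48 hours extended to 72 hours. The median change measured at 48 hours was -0.16. With the 48 hour array left out 19 fell (25.3%, against 9.06%), and with that of 2 hours left out 18 fell (24.0%, against 9.49%). None rose in any of these fits. With time as log2(hours + 1) 9 fell (12.0%, against 11.9%).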

How the data were processed

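Total RNA of cultured cells, pooled from 5 animals at each time, was measured on 7 arrays, 1 per time. The authors processed them in GCOS and deposited a linear MAS5.0 signal intensity per probe set, globally scaled to a trimmed mean of 500. The deposited values had 31099 probe sets, and 57 controls were left out. Names came from the 2016 platform annotation, and all 75 subunit symbols matched the GRCr8 RefSeq table. Members and lists were chosen with earlier results of these data known. The trend was fitted with lmFit and eBayes(trend = TRUE) of limma 3.58.1 in R 4.3.3, with 5 residual degrees of freedom, and tested on simulated data. Other values came from Python 3.11.15 with numpy 2.4.6 and pandas 2.3.3. Background subtraction makes low signals unreliable. With 1 array per time the small number of arrays limits the precision.

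Named were up to 12 members past the trend test in each direction by fitted change, members past the size threshold, Sdha to Sdhd, Cyc1, the largest rise and fall of each complex at 72 hours, tissue isoforms with their partners, and up to 4 genes per list. Ndufv1, Ndufa7, Ndufb11, Uqcrh, Atp5f1b, the names of the other members that fell and a few list genes were added after their values were seen. Alternatives were other pseudocounts, filters, scalings, forms of time, baselines, thresholds and probe sets, and each array left out. Adding the probe sets of several symbols was chosen after seeing the data.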

Additional observations from a re-analysis of the deposited data

How the results depend on the processing

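With 1 array per time, the spread is that around a line, and no replicate or unloaded control at a later time enters. None of the 75 subunits rose under any setting of the trend test, and 29 fell as deposited. Other pseudocounts, filters, scalings, no intensity trend and other probe sets gave 20 to 32. Of all probe sets tested, 7.15% (no filter) to 15.4% (mean signal at least 200) fell in these fits, and 14.1% as deposited. The 32 was reached with the 7 probe sets of several symbols added to the 75. Pseudocounts, filters, scalings and no intensity trend gave at most 29.

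Leaving out 1 array gave 8 (without 72 hours) to 33 (without 0 hours) that fell. By complex this was 5 to 15 in complex I, 0 to 1 in II, 1 to 5 in III, 0 to 3 in IV and 2 to 9 in V. In the same fits 3 to 6 genes of the citric acid cycle list fell and 1 to 2 rose, and 3 to 7 carriers fell. Of the regulators 3 to 6 rose and 0 to 1 fell, of the mitochondrial ribosomal proteins 7 to 15 fell and 0 to 4 rose, and of the import genes 1 to 4 fell and 0 to 1 rose. Of the assembly factors 1 to 3 fell and 0 to 2 rose, and of the oxygen defence genes 0 to 4 fell and 0 to 1 rose. Over all 17709 probe sets tested, 7.21% to 14.5% fell and 1316 to 2766 rose in these fits.

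Time as log2(hours + 1) gave 9 that fell (12.0%, against 11.9% of all probe sets tested). These were 5 in complex I, 0 in II, 1 in III, 0 in IV and 3 in V. Time as the rank of the array gave 19 (25.3%, against 13.6%), with 2 in complex III, 1 in IV and 5 in V. Without an intensity trend and with scaling to the same median, 0 fell in complex II, 1 in IV and 5 in V. Without a filter and with quantile normalization, 0 fell in complex II and 1 in IV. Scaling to the same median also left 0 import genes that rose, and moved the median log2 change of the subunits to 0.21 (2 hours), 0.24 (6 hours), 0.11 (12 hours), 0.064 (24 hours) and -0.035 (48 hours). The sign turned at 12 and 24 hours. At 72 hours the median stayed below 0 in every complex under the 7 settings tried for it. At a ratio of 1.5 in place of 2, 6 subunits were lower at 72 hours, a count that has no share of all probe sets beside it. The cause of these changes was not tested. No paired analysis was possible because each time has 1 array and no replicate number is shared.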
